A study of Mus musculus with 9 samples.

Results

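Serpins are a family of proteins that share a fold in which an exposed loop acts as bait for a protease. When a protease cleaves this reactive centre loop, an inhibitory serpin changes shape and traps the enzyme in an inactive complex. The liver is known as the main source of the serpins of blood plasma, which include alpha-1-antitrypsin, antithrombin, antiplasmin and the inhibitor of complement C1. A few members are not inhibitors and instead carry hormones or assist collagen folding. Family members were taken as every gene whose deposited symbol is Serpin followed by a clade letter from a to i, a number and at most 1 further letter. The rule found 47 of the 27945 genes with a level in the deposited files, while 16 more serpin symbols of the GENCODE M21 annotation had no count in any library.

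The study sequenced poly(A) RNA from the livers of mice, with 3 treated, 3 model and 3 control libraries, 9 in all. The series title concerns liver damage by gefitinib, an inhibitor of the epidermal growth factor receptor kinase. What the treated mice were given is not in the labels, nor is the dose, time, strain, sex or age of any group, and although the sample titles speak of liver cells and the tissue field of liver, no isolation of cells is described. Nothing marks libraries of the same group as different animals either, and p-values therefore reflect spread among libraries, part of which may be technical.

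Library totals ran from 56440871 to 60665156 estimated counts. Levels of a gene are given below as CPM, counts scaled to a common library total, with library sizes adjusted by the TMM method, which assumes that most genes do not differ. Levels of different genes are compared as FPKM, fragments per kilobase of transcript scaled to library depth. Of 10 hepatocyte marker symbols, 9 matched a gene with a count, among them Alb and Apoa1. The symbol Tf matched none, and other symbols of that gene were not searched. The summed level of the 9 was 67832 to 82998 CPM in treated, 87874 to 90677 CPM in model and 87495 to 99725 CPM in control libraries. Skeletal muscle markers, 7 of 7 with a count, summed to 96.8 to 132 CPM in the treated libraries and 149 CPM in model replicate 1, and never to more than 1.06 CPM in the 5 remaining libraries. What part the muscle RNA has in the results was not tested.

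Of the 47 members, 37 had enough counts to be tested and 10 did not. The tested members had at least 95 counts over the 9 libraries, and the others between 3 and 45. Those left out were Serpina16, Serpina3b, Serpinb5, Serpinb9d, Serpine3, Serpinb2, Serpinb1c, Serpinb7, Serpinb10 and Serpinb1b. Of the 24 members of clade A, which holds most secreted serpins, 22 were tested. Of the 13 members of clade B, whose products lie mostly inside cells, 6 were tested, and of the 10 members of clades C to I, 9 were. On chromosome 12, 23 clade A genes lie between positions 103614786 and 104414329 (GRCm38), and Serpina7 is on chromosome X.

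The family spanned a wide range of levels. A mean of at least 10 FPKM over the 9 libraries was found for 16 members, 9 lay between 1 and 10 FPKM, and 22 were below 1 FPKM. Clade A made up 91.8% of the family's summed FPKM, clade F 3.52%, clade G 2.17%, clade C 1.32% and clade B 0.0432%. Serpina1c had the highest level, with 3401 ± 458 FPKM in treated, 4285 ± 111 FPKM in model and 5512 ± 447 FPKM in control libraries (SD, n = 3 each), and ranked 18 among all genes. Over the 9 libraries, Serpina3k followed with a mean of 2816 FPKM, Serpina1a with 2552 FPKM, Serpina1b with 1898 FPKM and Serpina1d with 1039 FPKM. Serpina3m had a mean of 454 FPKM, Serpina1e 352 FPKM and Serpinf2 343 FPKM. Serpina3n and Serping1 lay close behind with 340 and 335 FPKM, and the libraries of Serpina1e, Serpinf2, Serpina3n and Serping1 overlapped, so that no order can be read among these 4 genes.

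**Figure D1:**
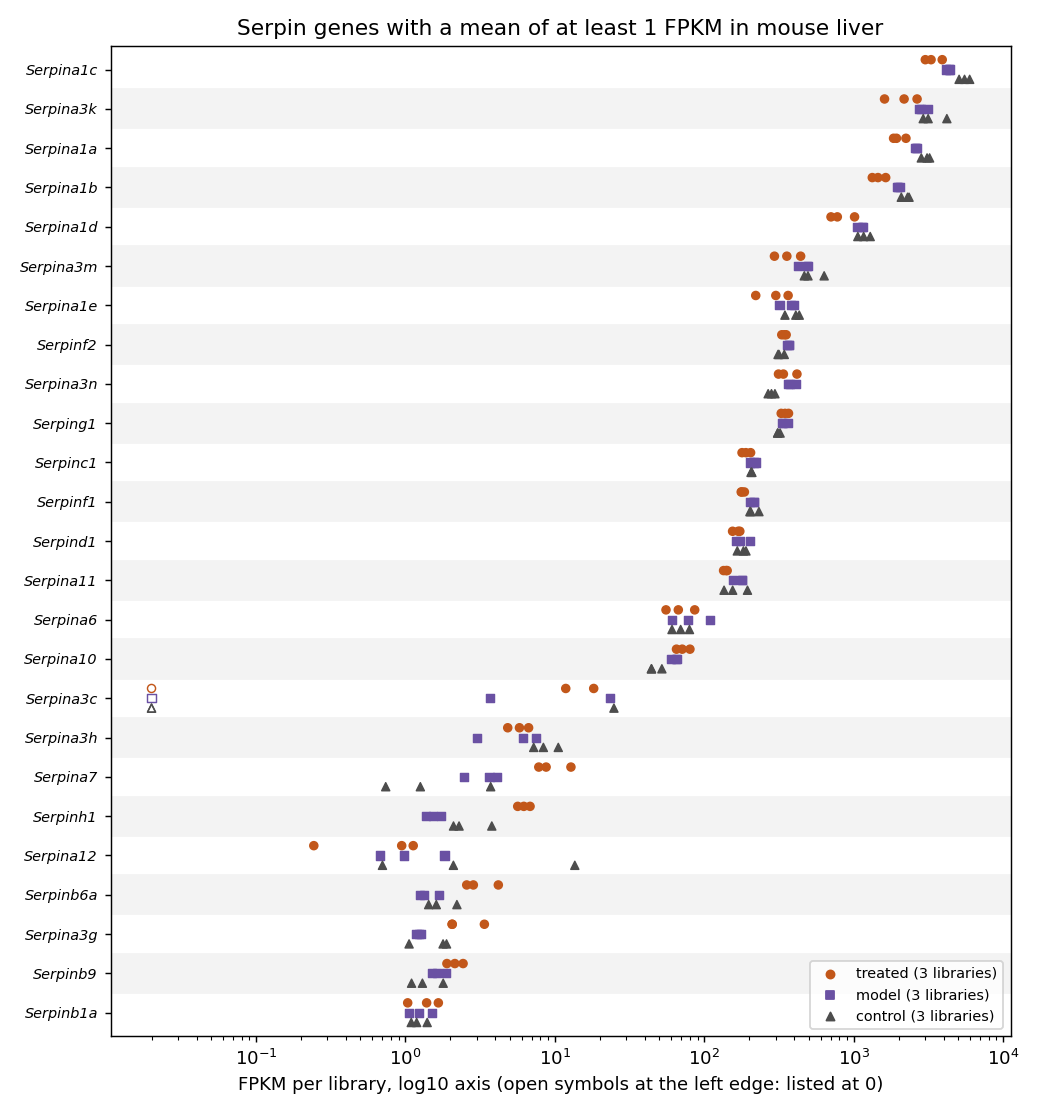
FPKM per library on a log10 axis for the 25 serpin genes with a mean of at least 1 FPKM, with treated libraries as circles, model libraries as squares and control libraries as triangles (3 each), and open symbols at the left edge where a gene was listed at 0. Serpina1a to Serpina1d and Serpina3k lie at the top of the range, while Serpinh1 and Serpina7 lie far lower, with the treated libraries to the right of the model libraries.

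Of all counts in a library, the family took 2.70 ± 0.325% in treated, 3.42 ± 0.0930% in model and 3.88 ± 0.358% in control libraries (SD, n = 3 each). No treated library, at 2.41 to 3.05%, reached the lowest model library at 3.32%, and no model library, at up to 3.49%, reached the lowest control library at 3.53%. Exact two-sided permutation tests gave p = 0.1 for each of the 3 comparisons, which is the smallest p that 3 libraries against 3 can give.

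Gene by gene, with edgeR's quasi-likelihood F test and Benjamini-Hochberg adjustment over 18113 genes, treated and control livers differed in 16 of the 37 tested members at an adjusted p under 0.05. Of these, 11 were lower and 5 higher in treated livers, where 8.47% of all genes were called lower and 9.36% higher. Between treated and model livers, 6 members were lower and 2 higher in treated livers, beside 4.44% of all genes called lower and 5.21% higher. Between model and control livers, Serpinb6b was higher in model livers and no member was lower (6 at an unadjusted p under 0.05, 3 with DESeq2 and none with limma-voom), beside 0.519% of all genes called higher and 0.596% lower. In all, 17 members were called in at least 1 comparison, 7 of them in both comparisons of the treated livers, and 20 tested members were called in none. The median log2 fold change of the tested members was -0.22 for treated versus control, -0.16 for treated versus model and -0.12 for model versus control livers, against -0.01, 0.01 and 0.00 for all genes. With library totals in place of TMM sizes, which moved the median of all genes to 0.20, 0.17 and 0.04, the members' medians were -0.03, 0.00 and -0.08, so those of treated livers lay below the median of all genes under both scalings. The treated group takes part in 2 of the comparisons and each other group likewise, so the 3 sets of values are not independent.

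**Figure D2:**
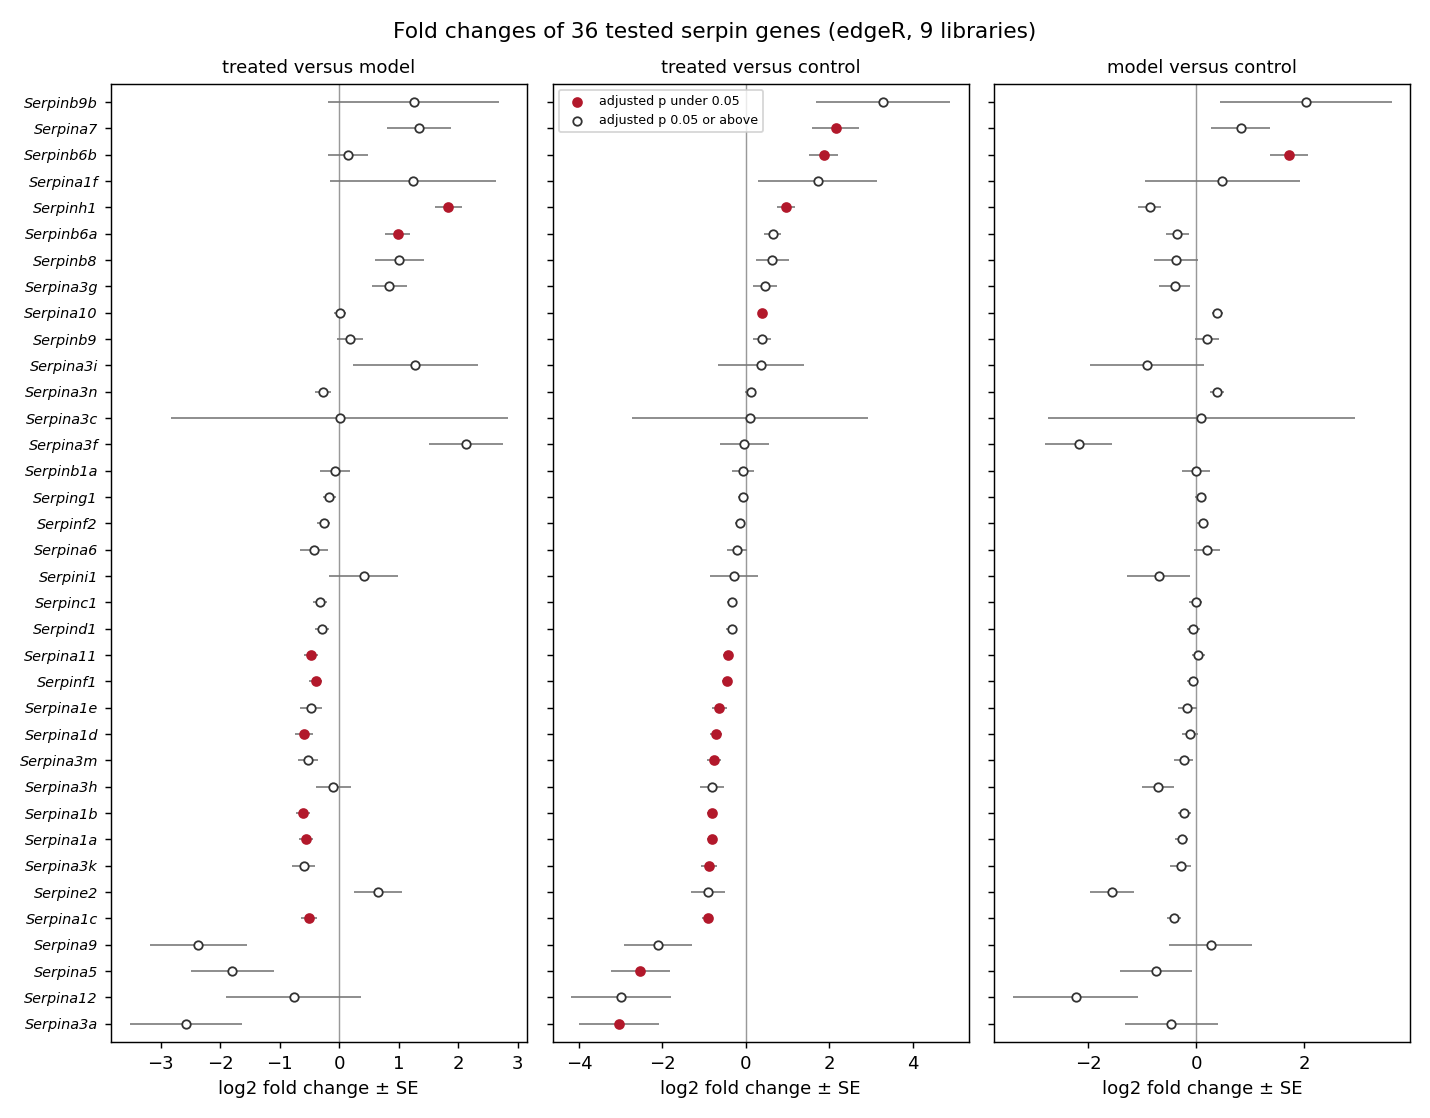
Log2 fold change (edgeR) with its standard error for 36 of the 37 tested serpin genes in treated versus model, treated versus control and model versus control livers (3 libraries each), with genes ordered by treated versus control and red symbols for an adjusted p under 0.05. The red symbols number 8, 15 and 1 from left to right, and the lower ones in the middle panel are mostly Serpina1 and Serpina3 genes.

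Alpha-1-antitrypsin, the plasma inhibitor of neutrophil elastase, is encoded in the mouse by a tandem array of near-identical genes on the minus strand of chromosome 12. All 5 expressed copies had a coding sequence of 1239 bases, and any 2 of them were identical at 96.3 to 98.5% of these bases. The stretch in which they differ most holds part of the region for the reactive centre loop, where the identity of the residues decides which protease is bound. It is shown here because it separates copies whose counts are otherwise hard to keep apart. Capitals mark the 18 of 60 bases at which the 5 copies are not all alike (coding bases 1101 to 1160, GENCODE M21 transcripts, sense strand), where the median window of this length holds 4 such bases and the whole coding sequence 86.
Serpina1a: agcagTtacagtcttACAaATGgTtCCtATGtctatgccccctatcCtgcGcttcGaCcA
Serpina1b: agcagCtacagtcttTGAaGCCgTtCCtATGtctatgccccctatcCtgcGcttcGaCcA
Serpina1c: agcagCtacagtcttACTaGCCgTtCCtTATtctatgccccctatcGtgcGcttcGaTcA
Serpina1d: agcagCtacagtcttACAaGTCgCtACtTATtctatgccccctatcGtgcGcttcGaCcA
Serpina1e: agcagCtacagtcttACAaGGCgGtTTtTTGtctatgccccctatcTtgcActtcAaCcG

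Of the 100-base windows along each transcript, 58.5% of those of Serpina1c and 58.0% of those of Serpina1a occur unchanged in another member, against 26.3% for Serpina1d, 24.6% for Serpina1b and 18.2% for Serpina1e. How reads from such windows were assigned to the copies is not known here, and the value of a single copy is uncertain to that extent. In GENCODE M21, Serpina1d also lies inside the span of Serpina1b, and an antisense transcript, B430119L08Rik, lies over Serpina1c. The sources used here do not tell whether counting used the strand.

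The upstream sequences of the 5 copies are alike as well. In the RefSeq table of promoters (GRCm38.p6, 300 bases around an annotated start), 38 of the 47 members had an entry. These 38 had 44 windows, and a member was counted if any of its windows held a motif. Windows of all genes were counted singly, so shares of members and of windows are unlike measures. The core letters GTTAAT of the site of HNF1, a homeodomain factor that drives many liver genes, were searched on both strands. They occurred in 5 of 5 of these copies and in 8 of the 38 members (21.1%), against 7.10% of all 32851 windows. These 5 near-identical copies are among the 8, so the share of members is not one of separate sequences. The windows around GTTAAT in the 5 copies are printed to show how little they vary. They all lie on the minus strand of chromosome 12, and the core letters are in capitals.
Serpina1a, chr12:103863605-103863670: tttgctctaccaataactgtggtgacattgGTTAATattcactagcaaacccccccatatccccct
Serpina1b, chr12:103738180-103738245: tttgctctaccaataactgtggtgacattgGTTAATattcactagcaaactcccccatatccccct
Serpina1c, chr12:103904942-103905007: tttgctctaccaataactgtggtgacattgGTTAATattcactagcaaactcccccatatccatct
Serpina1d, chr12:103773614-103773679: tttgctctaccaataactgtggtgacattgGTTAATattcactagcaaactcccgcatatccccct
Serpina1e, chr12:103956940-103957005: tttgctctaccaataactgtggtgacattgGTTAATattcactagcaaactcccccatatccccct

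Further upstream, 4 of the 5 copies held the AP-1 motif TGANTCA, the letters to which FOS and JUN proteins bind. It occurred in 9 of the 38 members (23.7%), these 4 near-identical copies among them, and in 7.81% of all windows. The window of Serpina1e, the copy without it, is placed differently, with GTTAAT at -78 from the RefSeq start against -27 to -16 in the others, and does not reach the stretch that holds the motif there. The whole RefSeq window of Serpina1c, the most abundant copy, is given as an example with both motifs, which do not overlap, in capitals (chr12:103904901-103905200, minus strand).
Serpina1c promoter: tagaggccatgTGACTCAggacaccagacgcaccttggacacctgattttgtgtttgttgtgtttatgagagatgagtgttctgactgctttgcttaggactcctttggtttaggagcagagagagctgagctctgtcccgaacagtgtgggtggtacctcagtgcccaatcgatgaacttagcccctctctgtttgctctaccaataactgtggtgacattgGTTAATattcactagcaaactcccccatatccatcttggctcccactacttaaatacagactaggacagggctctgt
Of the other motifs searched, the STAT site TTCNNNGAA occurred in 7 of the 38 members (18.4%, against 8.30% of all windows) and in none of the 5 copies. The heat shock element GAANNTTC occurred in 4 (10.5%, against 7.86%) and the SMAD motif CAGACA in 8 (21.1%, against 21.04%). A match describes the letters of the window, not binding.

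The Serpina1 genes were lower in treated livers. In treated compared with control livers all 5 copies fell, by 0.64 to 0.91 on the log2 scale, and in treated compared with model livers Serpina1a, Serpina1b, Serpina1c and Serpina1d fell. In liver RNA, fewer cells of a type and less RNA per cell cannot be told apart, here or below. Serpina1c was at 4079.6, 4662 and 5663 CPM in treated libraries, 7137, 6427 and 6896 CPM in model libraries and 9466, 8614 and 9039 CPM in control libraries. The 3 groups did not overlap, with the treated libraries lowest and the control libraries highest. Its log2 fold change was -0.91 for treated versus control (SE 0.13, adjusted p = 0.00102) and -0.51 for treated versus model (SE 0.13, adjusted p = 0.0348). For model versus control it was -0.41 (SE 0.13), which did not pass (adjusted p = 0.183).

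Serpina1a showed the same order, at 3367, 3685 and 4359 CPM in treated libraries, 5882, 5343 and 5524 CPM in model libraries and 6873, 6477 and 6832 CPM in control libraries. It fell 1.77-fold against control (adjusted p = 0.00107) and 1.47-fold against model livers (adjusted p = 0.0158). Serpina1b was at 3197, 3652 and 4206 CPM in treated libraries, 5798, 5325 and 5685.5 CPM in model libraries and 6601, 6273 and 6669 CPM in control libraries. Here too no library of a group overlapped another group, and the falls were 1.77-fold against control (adjusted p = 0.00111) and 1.52-fold against model livers (adjusted p = 0.0112). Serpina1d had 977, 1127 and 1503 CPM in treated libraries, 1796, 1786 and 1864 CPM in model libraries and 1893, 1853.5 and 2164.5 CPM in control libraries. The treated libraries lay below all others, while model and control libraries overlapped, with falls of 1.64-fold against control (adjusted p = 0.00882) and 1.51-fold against model livers (adjusted p = 0.0337). Serpina1e had 355, 507 and 626 CPM in treated libraries, 627, 726 and 712 CPM in model libraries and 773, 699 and 841 CPM in control libraries. It fell 1.55-fold against control livers (adjusted p = 0.0328) and did not pass against model livers (log2 fold change -0.47, SE 0.18, adjusted p = 0.132) except without treated replicate 3. Serpina1f, whose product is known from the epididymis, stayed at or under 0.396 CPM in every library.

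Of the 9 tested hepatocyte markers, whose summed level in the treated libraries lay below that of all other libraries, Cyp2e1, Apob, Ass1 and Ttr were called lower and none higher in treated than in control livers. Of all genes, 8.47% were called lower and 9.36% higher there. Against model livers Cyp2e1 was lower and Hnf4a higher, beside 4.44% and 5.21% of all genes. The part of hepatocyte number or RNA in the Serpina1 values was not tested.

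Summed over the group, where the assignment of reads among its copies cancels, Serpina1 genes were at 11974, 13630 and 16352 CPM in treated libraries, 21240, 19608 and 20688 CPM in model libraries and 25613, 23924 and 25545 CPM in control libraries. The groups followed one another without overlap. In a fit with the sums in place of the single genes, the log2 fold change was -0.84 for treated versus control (SE 0.13, adjusted p = 0.00129), -0.55 for treated versus model (SE 0.13, adjusted p = 0.0207) and -0.29 for model versus control (SE 0.13, adjusted p = 0.341). The call against control held in all 19 alternatives. That against model livers was lost without model replicate 1 (adjusted p = 0.0728), model replicate 3 (adjusted p = 0.0677), treated replicate 1 (adjusted p = 0.0693) or treated replicate 2 (adjusted p = 0.0587).

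Of the single copies, against control livers, Serpina1a to Serpina1d were called in all 19 alternatives and Serpina1e in 12 of 19. Against model livers, only Serpina1b of the 4 was called in all 19. Serpina1a lost its call without model replicate 1, model replicate 3 or treated replicate 1 (highest adjusted p = 0.0632). Serpina1c and Serpina1d lost theirs in 8 and 7 of 19 alternatives, including those without any 1 model library or without treated replicate 1 or 2 (highest adjusted p = 0.113 and 0.104).

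Shares within the group shifted by a few percentage points at most. Serpina1c made up 34.3 ± 0.291% of the group's counts in treated, 33.2 ± 0.421% in model and 36.1 ± 0.798% in control libraries (SD, n = 3 each), without overlap between groups. Serpina1b took 26.4 ± 0.596% in treated, 27.3 ± 0.166% in model and 26.0 ± 0.232% in control libraries. Serpina1a took 27.3 ± 0.760% in treated, 27.2 ± 0.494% in model and 26.9 ± 0.172% in control libraries, values that overlapped.

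The Serpina3 genes are the mouse counterparts of human alpha-1-antichymotrypsin, expanded from a single gene. Their abundant members differed in behaviour: Serpina3k and Serpina3m fell in treated compared with control livers, and Serpina3n did not pass in any comparison. Serpina3k was at 3289, 4652 and 5810.1 CPM in treated libraries, 7089.8, 6337 and 7405 CPM in model libraries and 10070, 7489 and 7797 CPM in control libraries. The treated libraries lay below all model and control libraries, and the control libraries above all model libraries. The fall against control livers was 1.84-fold (adjusted p = 0.0103), and against model livers the log2 fold change of -0.60 (SE 0.19) did not pass (adjusted p = 0.0799). Serpina3m was at 504, 638 and 808 CPM in treated libraries, 1011, 824 and 976 CPM in model libraries and 1271, 1002 and 1023 CPM in control libraries, a fall of 1.69-fold against control livers (adjusted p = 0.0126) and a log2 fold change of -0.53 (SE 0.17) against model livers that did not pass (adjusted p = 0.0837). Both calls against control livers held in all 19 alternatives, and against model livers DESeq2 and the fit without treated replicate 3 called both genes. The 2 genes share a start in the annotation, and 4.85% of the 100-base windows of Serpina3k and 6.09% of those of Serpina3m occur in another member.

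Serpina3n, an inhibitor of granzyme B that is known as an acute phase gene, was at 695, 674 and 916 CPM in treated libraries, 907, 961 and 893 CPM in model libraries and 644, 725 and 738 CPM in control libraries. The model libraries all lay above the control libraries, and the treated libraries overlapped with both. Its log2 fold change was 0.12 (SE 0.13, adjusted p = 0.61) for treated versus control, -0.27 (SE 0.13, adjusted p = 0.24) for treated versus model and 0.39 (SE 0.13, adjusted p = 0.214) for model versus control livers. By comparison, 11 of 20 tested acute phase genes were higher and none lower in treated than in control livers (none lower also at an unadjusted p under 0.05, with DESeq2 and with limma-voom), with a median log2 fold change of 0.80. Of all genes, 9.36% were called higher and 8.47% lower in that comparison. The shares called higher were 5.21% in treated versus model and 0.519% in model versus control livers. Steap4, a metalloreductase, rose 3.67-fold to 181 ± 20.1 CPM, against 49.3 ± 8.38 CPM in control livers (SD, n = 3 each, adjusted p = 2.05e-05). Hemopexin (Hpx), the plasma carrier of haem, rose 2.77-fold (adjusted p = 0.000412), and Il1rn, which blocks the interleukin-1 receptor, 7.48-fold (adjusted p = 5.09e-05). In treated versus model livers 3 of the 20 were higher, Il1rn, Steap4 and Lcn2, and in model versus control livers 4 were, Hp, Steap4, Hpx and Saa2. Without model replicate 2 or 3, each of these 4 calls was lost, and without model replicate 1 those of Steap4 and Saa2 (highest adjusted p = 0.137 over all alternatives, for Saa2), as was that of Lcn2 against model livers without model replicate 1 or 3 (highest adjusted p = 0.0627). Over the 20 genes, the median log2 fold change for model versus control livers was 0.46. DESeq2 called 9 of them higher there and limma-voom 6, and 11 were higher at an unadjusted p under 0.05, with none lower in any.

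Summed over the group, Serpina3 genes were at 4530.1, 5979 and 7595 CPM in treated libraries, 9022, 8148 and 9346 CPM in model libraries and 12078, 9241 and 9580.2 CPM in control libraries. The treated libraries lay below all others, and 1 control library lay within the range of the model libraries. The log2 fold change was -0.77 for treated versus control (SE 0.18, adjusted p = 0.0138, called in all 19 alternatives), and -0.55 for treated versus model (SE 0.18), which did not pass (adjusted p = 0.0825) but was called by DESeq2 and without treated replicate 3.

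Of the minor Serpina3 genes, Serpina3a was called, at 0.205, 0 and 0.110 CPM in treated libraries, 0.522, 0.316 and 1.08 CPM in model libraries and 1.09, 0.942 and 0.616 CPM in control libraries. These values stand for 0 to 14 counts per treated library and 33 to 61 per control library. The log2 fold change against control livers was -3.04 (SE 0.96, adjusted p = 0.0495), and the call was lost in 14 of the 18 alternatives that tested the gene, including each that left out a library (highest adjusted p = 0.116). Serpina3f, Serpina3g, Serpina3h and Serpina3i were not called by edgeR with TMM sizes and all libraries, with means of 0.226 to 15.03 CPM per group. DESeq2 called Serpina3g in treated versus model livers (as did the fit with library totals) and Serpina3h in treated versus control livers (as did the fits of the 2 groups alone and without model replicate 3).

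**Figure D3:**
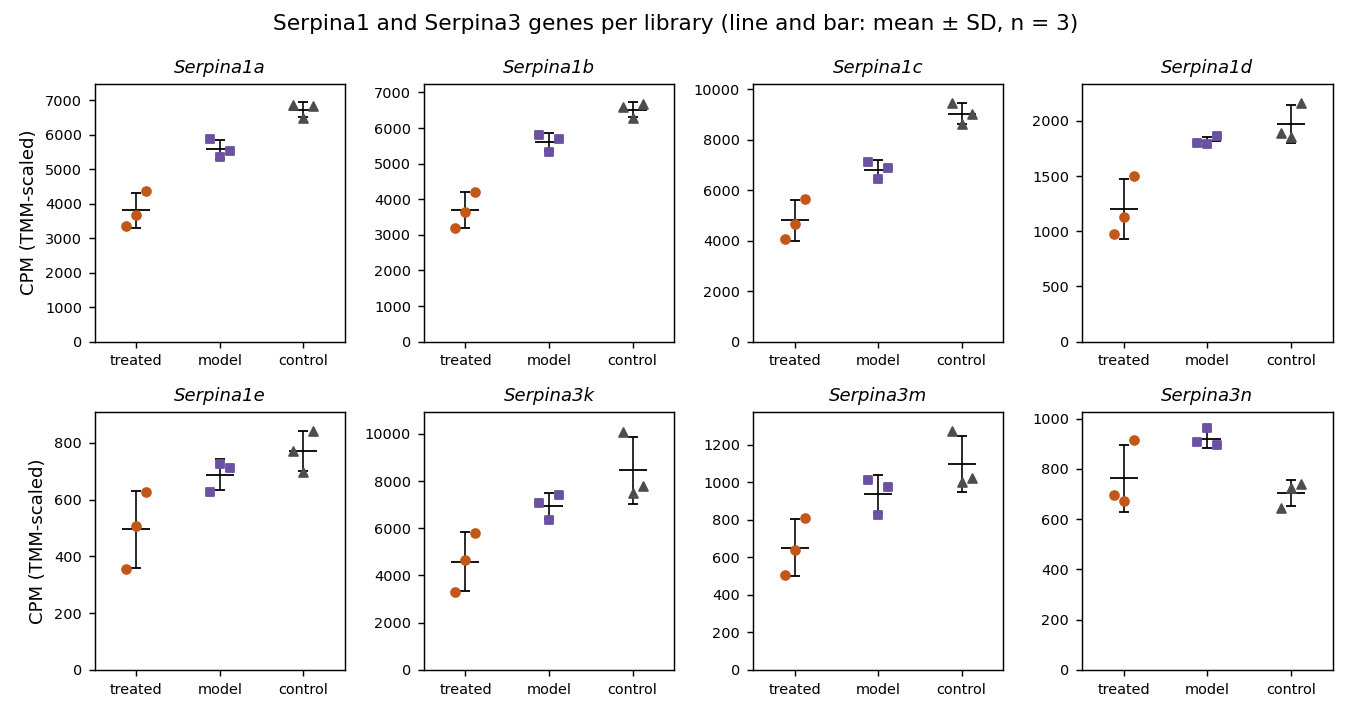
CPM per library on TMM-scaled library sizes for Serpina1a to Serpina1e, Serpina3k, Serpina3m and Serpina3n, with treated, model and control libraries from left to right, a line for the mean and bars for the SD (n = 3). For Serpina1a, Serpina1b and Serpina1c the 3 groups do not overlap, whereas for Serpina3n the treated libraries, at 674 to 916 CPM, overlap with both other groups.

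Of the plasma serpins that control clotting, fibrinolysis and complement, Serpina10 was called and Serpinc1, Serpind1, Serpinf2 and Serping1 were not. Antithrombin (Serpinc1), the main inhibitor of thrombin and factor Xa, was at 1521, 1816 and 1728 CPM in treated libraries, 2295, 1948 and 2108.5 CPM in model libraries and 2068, 2191 and 2139 CPM in control libraries. The treated libraries lay below all others. The log2 fold change was -0.34 against control (SE 0.11, adjusted p = 0.0627) and -0.33 against model livers (SE 0.11, adjusted p = 0.0991), neither of which passed. Heparin cofactor II (Serpind1), a second thrombin inhibitor, had 337, 394 and 393 CPM in treated libraries, 464, 404 and 508 CPM in model libraries and 467, 520 and 439 CPM in control libraries. Its treated libraries were likewise lowest, with a log2 fold change of -0.34 (SE 0.12) against control livers that did not pass (adjusted p = 0.0822). DESeq2 called both genes lower against control livers and Serpinc1 also against model livers, and limma-voom called Serpinc1 against control livers.

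Alpha-2-antiplasmin (Serpinf2), which inhibits plasmin, was at 795, 798 and 873 CPM in treated libraries, 1035.5, 936 and 986 CPM in model libraries and 844, 995 and 884 CPM in control libraries. The C1 inhibitor (Serping1), which blocks the complement proteases C1r and C1s and plasma kallikrein, was at 803, 792 and 906 CPM in treated libraries, 941, 890 and 972 CPM in model libraries and 872, 900.2 and 867 CPM in control libraries. Neither was called in any comparison. For treated versus control livers the log2 fold change was -0.14 (SE 0.11, adjusted p = 0.414) for Serpinf2 and -0.08 (SE 0.10, adjusted p = 0.664) for Serping1. Serpina10, the protein Z-dependent inhibitor of factor X, was higher in treated than in control livers, at 279, 237 and 265 CPM against 212, 193 and 187 CPM. Model libraries, at 253, 258 and 266.5 CPM, lay with the treated libraries, and all 6 were above the control libraries. The rise of 1.32-fold (adjusted p = 0.0213) was lost without control replicate 2 or 3 or treated replicate 1 or 3, and for model versus control livers a fold of 1.31 did not pass (adjusted p = 0.0996) but was called by DESeq2.

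Pigment epithelium-derived factor (Serpinf1), a non-inhibitory serpin known for its effect on blood vessel growth, fell 1.38-fold in treated compared with control livers (adjusted p = 0.0117) and 1.32-fold compared with model livers (adjusted p = 0.0362). It was at 418, 434 and 466 CPM in treated libraries, 617, 538 and 581 CPM in model libraries and 638, 595 and 581 CPM in control libraries, with the treated libraries lowest. Serpina11 was at 228, 229.6 and 248 CPM in treated libraries, 311, 331 and 339.5 CPM in model libraries and 371, 277 and 306 CPM in control libraries. It fell 1.39-fold against model (adjusted p = 0.032) and 1.35-fold against control livers (adjusted p = 0.0296), again with the treated libraries below all others. In treated versus model livers, both calls were lost without any 1 of the 6 libraries compared (highest adjusted p = 0.166 for Serpinf1 and 0.16 for Serpina11). Against control livers, Serpinf1 lost its call with unscaled library totals (adjusted p = 0.0934) and Serpina11 in 8 of 19 alternatives.

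The proteases that these inhibitors act on were followed with a list of 34 genes, of which 31 were tested. In treated versus control livers 5 were higher and 8 lower, in treated versus model livers 3 were higher and 6 lower, and in model versus control livers none was called (5 higher and 1 lower at an unadjusted p under 0.05, 2 higher and none lower with DESeq2, none with limma-voom). The median log2 fold changes were -0.12, -0.24 and 0.04, against -0.009, 0.005 and -0.0009 for all genes. Of all genes, 9.36% were called higher and 8.47% lower against control livers, and 5.21% and 4.44% against model livers. Of the 6 lower proteases in treated versus model livers, Klkb1, Masp2, Plg and Proc kept their calls in 10, 11, 11 and 4 of 19 alternatives (highest adjusted p = 0.249, for Proc). All 4 lost them without model replicate 1 or 3 and without treated replicate 1 or 2. In treated versus control livers, the calls of Hpn, Masp2, Plg, Prss8, Prtn3 and Tmprss6 held in 9, 12, 8, 13, 8 and 14 of 19 alternatives. Those of Plg and Prtn3 were lost without any 1 model library, among other losses. Among the liver-made plasma proteases, Klkb1, plasma prekallikrein, fell to 174 ± 18.7 CPM in treated livers, against 311 ± 27.6 CPM in control livers (SD, n = 3 each, adjusted p = 0.0013). F7, coagulation factor VII, fell to 84.9 ± 2.25 CPM in treated livers, against 127 ± 4.26 CPM in model livers (adjusted p = 0.00218). Among the rising genes, Ctss, the lysosomal protease cathepsin S, was at 141 ± 10.4 CPM in treated, 23.1 ± 5.26 CPM in model and 16.9 ± 3.08 CPM in control livers (adjusted p = 5.59e-05 against model and 7.62e-06 against control). Ctsb, cathepsin B, rose 1.60-fold against model (adjusted p = 0.00838) and 1.81-fold against control livers (adjusted p = 0.00118).

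Of the genes of plasmin formation, the step that starts fibrinolysis, Plau and Plaur rose in treated livers and Plg fell. Plau, urokinase, was at 6.36 ± 2.15 CPM in treated, 1.42 ± 0.311 CPM in model and 0.861 ± 0.127 CPM in control livers (SD, n = 3 each, adjusted p = 0.0027 against model and 0.000315 against control). Plaur, the urokinase receptor, was at 7.17 ± 1.53 CPM in treated, 0.66 ± 0.434 CPM in model and 0.394 ± 0.162 CPM in control livers (adjusted p = 0.00349 against model and 0.000742 against control). Plg, which encodes plasminogen itself, fell to 1828 ± 247 CPM in treated livers, against 2552 ± 101 CPM in model livers (adjusted p = 0.035) and 2456 ± 212 CPM in control livers (adjusted p = 0.0374). The calls of Plau and Plaur held in all 19 alternatives, and those of Plg in 11 and 8 of 19, the losses including those without any 1 model library. Of the 12 receptors and cofactors tested, 1 was higher (Plaur) and 4 lower in treated than in control livers. Of all genes, 9.36% were called higher and 8.47% lower there. The median log2 fold change of the list was 0.00. Against model livers 1 was higher and 1 lower, beside 5.21% and 4.44% of all genes, with a median of -0.09. In model versus control livers 1 was lower, Stab2, beside 0.596% of all genes, with a median of -0.10. Stab2, a scavenger receptor of sinusoidal endothelium, was at 29.4 ± 3.22 CPM in treated, 47.9 ± 6.70 CPM in model and 108.1 ± 14.98 CPM in control livers (adjusted p = 0.011 for treated versus model, 3.05e-05 for treated versus control and 0.0068 for model versus control). Sdc2, a heparan sulfate proteoglycan, fell 1.35-fold in treated compared with control livers (adjusted p = 0.00969), though not with unscaled library totals (adjusted p = 0.101).

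Serpinh1 (chr7:99345376-99353239), known as HSP47, is not an inhibitor but a chaperone that binds procollagen in the endoplasmic reticulum. It was at 15.1, 17.4 and 14.7 CPM in treated libraries, 5.12, 3.80 and 4.30 CPM in model libraries and 10.8, 6.999 and 6.19 CPM in control libraries. The 3 groups did not overlap, and here the model libraries were lowest and the treated libraries highest. It rose 3.57-fold against model livers (log2 fold change 1.84, SE 0.22, adjusted p = 0.000774) and 1.97-fold against control livers (log2 fold change 0.97, SE 0.22, adjusted p = 0.0108), and both calls held in all 19 alternatives. For model versus control livers the log2 fold change was -0.86 (SE 0.22), which did not pass (adjusted p = 0.0931) but was called by DESeq2.

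Genes that act with Serpinh1 in collagen production were counted in a list of 22 collagen chains and collagen-modifying enzymes, all of them tested. In treated versus model livers 6 were higher and none lower (1 lower at an unadjusted p under 0.05, none with DESeq2 or limma-voom), with a median log2 fold change of 0.72. In treated versus control livers 7 were higher and 2 lower, with a median of 0.68. Of all genes, 5.21% were called higher and 4.44% lower against model livers, and 9.36% and 8.47% against control livers. In model versus control livers none was called by edgeR, DESeq2 or limma-voom (1 higher and 2 lower at an unadjusted p under 0.05), with a median of -0.07. Col1a2, a chain of type I collagen, was at 53.9 ± 13.6 CPM in treated, 11.8 ± 3.14 CPM in model and 14.2 ± 3.02 CPM in control livers (SD, n = 3 each, adjusted p = 0.000773 against model and 0.000719 against control). Col4a1, a basement membrane collagen, was at 64.5 ± 2.87 CPM in treated, 24.6 ± 2.69 CPM in model and 32.0 ± 8.94 CPM in control livers (adjusted p = 0.000844 against model and 0.00239 against control). Col3a1 rose 5.57-fold against model livers (adjusted p = 0.00353) and 4.60-fold against control livers (adjusted p = 0.00292). The calls of these 3 genes held in all 19 alternatives. The 2 lower genes in treated versus control livers were Plod1, a collagen lysyl hydroxylase, and Bmp1, a procollagen protease, named after their values were seen.

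Hepatic stellate cells are known as the main collagen producers of the liver. Their 10 markers, 10 with a count, summed to 251 to 324 CPM in treated, 256 to 284 CPM in model and 362 to 432 CPM in control libraries, with all treated and model libraries below the control libraries. The markers did not move alike. In treated versus model livers their median log2 fold change was 0.40, and edgeR called none. At an unadjusted p under 0.05, 3 were higher and 2 lower. In treated versus control livers edgeR called 4 of the 10 lower and none higher, with a median of -0.22, as did DESeq2 and limma-voom. Of all genes, 8.47% were called lower and 9.36% higher there by edgeR. In model versus control livers edgeR and limma-voom called none and DESeq2 3 lower, with a median of -0.58. At an unadjusted p under 0.05, 6 were lower and none higher in that comparison. The 10 endothelial markers, 10 with a count, summed to 86.5 to 134 CPM in treated, 145 to 169 CPM in model and 338 to 426 CPM in control libraries. The 10 macrophage markers, 10 with a count, summed to 808 to 943 CPM in treated, 297 to 398 CPM in model and 201 to 316 CPM in control libraries, and the 6 mesothelial markers, 6 with a count, to 617 to 750 CPM in treated, 198 to 238 CPM in model and 105 to 150.3 CPM in control libraries. Nearly all of the mesothelial sum was Krt8, a keratin that hepatocytes also make, at 668 ± 71.8 CPM in treated livers, 217 ± 20.1 CPM in model livers and 122 ± 20.4 CPM in control livers. The part of these cells in the values of Serpinh1 was not tested.

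Clade B serpins protect cells from their own granule and lysosomal proteases. They were of low level, below 3 FPKM on average over the 9 libraries, with Serpinb6a at a mean of 3.20 FPKM in the treated libraries. Serpinb6a (chr13:33917918-34002794), an inhibitor of cathepsin G, rose 1.98-fold in treated compared with model livers (log2 fold change 0.99, SE 0.21, adjusted p = 0.0149). It was at 22.6, 14.6 and 16.5 CPM in treated libraries, 8.77, 10.4 and 7.86 CPM in model libraries and 10.2, 9.71 and 14.5 CPM in control libraries, so that the treated libraries lay above all others. Against control livers the log2 fold change of 0.64 (SE 0.21) did not pass (adjusted p = 0.056) but was called in 4 alternatives, DESeq2, library totals and those without control replicate 3 or treated replicate 2. The call against model livers was lost without model replicate 1 or 3 or treated replicate 1 (highest adjusted p = 0.0637), and the gene overlaps Nqo2 and Ripk1 on the opposite strand.

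Serpinb6b, an inhibitor of granzyme A, was the member called in model versus control livers, with 1.64, 3.08 and 3.59 CPM in model libraries against 0.947, 0.808 and 0.765 CPM in control libraries (log2 fold change 1.72, SE 0.35, adjusted p = 0.0445). Treated libraries had 3.02, 2.49 and 3.71 CPM. Both groups lay above all control libraries and overlapped each other. The rise against control livers was 3.65-fold in treated livers (adjusted p = 0.00423) and held in all 19 alternatives, whereas that in model livers was lost in 11 of 19, among them without any 1 control library, without any 1 treated library, without model replicate 2 or 3 and with limma-voom (highest adjusted p = 0.151). For treated versus model livers the log2 fold change was 0.15 (SE 0.33, adjusted p = 0.843).

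Summed over the pair, Serpinb6 genes were at 25.6, 17.0 and 20.2 CPM in treated libraries, 10.4, 13.5 and 11.4 CPM in model libraries and 11.2, 10.5 and 15.2 CPM in control libraries. The treated libraries lay above all others, with a log2 fold change of 0.83 against model (SE 0.19, adjusted p = 0.022) and 0.77 against control livers (SE 0.19, adjusted p = 0.0184). The first of these calls was lost without model replicate 1 (adjusted p = 0.091), model replicate 3 (adjusted p = 0.0758) or treated replicate 1 (adjusted p = 0.0839), and that against control livers without control replicate 1 (adjusted p = 0.0632), control replicate 2 (adjusted p = 0.0709) or treated replicate 1 (adjusted p = 0.0769). Serpinb9, an inhibitor of granzyme B, Serpinb1a, an inhibitor of neutrophil elastase, Serpinb8 and Serpinb9b were not called, with log2 fold changes for treated versus control livers of 0.39 (SE 0.22), -0.07 (SE 0.26), 0.64 (SE 0.40) and 3.28 (SE 1.61). The value of Serpinb9b rests on few counts, 13, 45 and 15 in treated, 0, 11 and 16 in model and 6, 0 and 0 in control libraries. The 10 neutrophil markers, 10 with a count, summed to 12.6 to 184 CPM in treated, 14.8 to 30.003 CPM in model and 3.92 to 6.46 CPM in control libraries, and those of T and NK cells, 10 of 10 with a count, to 7.36 to 12.01 CPM in treated, 9.68 to 13.5 CPM in model and 4.36 to 12.8 CPM in control libraries. What part such cells, or the macrophages above, have in the clade B values was not tested.

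Of the hormone carriers, Serpina7 rose and Serpina6 did not pass the test. Thyroxine-binding globulin (Serpina7) was at 21.3, 32.7 and 20.4 CPM in treated libraries, 12.2, 10.2 and 7.05 CPM in model libraries and 10.7, 2.27 and 3.73 CPM in control libraries. The treated libraries were above all others. It rose 4.46-fold in treated compared with control livers (log2 fold change 2.16, SE 0.56, adjusted p = 0.0361). This call was lost in 10 of 19 alternatives, including those without any 1 treated or model library and without control replicate 2 or 3 (highest adjusted p = 0.114). Against model livers the log2 fold change of 1.34 (SE 0.54) did not pass (adjusted p = 0.183) but was called by DESeq2, by limma-voom, in the fit of the 2 groups alone and without control replicate 1. Corticosteroid-binding globulin (Serpina6) was at 97.1, 123 and 162 CPM in treated libraries, 232, 122 and 158 CPM in model libraries and 163, 134 and 147 CPM in control libraries. These overlapped, and no comparison passed (log2 fold change -0.22, SE 0.24, adjusted p = 0.599 for treated versus control livers). Nr3c1, the receptor for the hormones that Serpina6 carries, fell to 40.8 ± 3.03 CPM in treated livers, against 57.2 ± 6.21 CPM in control livers (SD, n = 3 each, adjusted p = 0.00974), a call lost with unscaled library totals.

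Serpina12, known as vaspin, was at 0.909, 3.64 and 4.44 CPM in treated libraries, 8.21, 2.83 and 4.20 CPM in model libraries and 58.5, 9.65 and 3.13 CPM in control libraries. The groups overlapped, and a single control library set the control mean of 23.8 ± 30.3 CPM (SD, n = 3), so that a log2 fold change of -2.99 (SE 1.19) for treated versus control livers did not pass (adjusted p = 0.142) but was called by DESeq2. Serpina5, the protein C inhibitor, was at 0.117, 1.27 and 0.740 CPM in treated libraries, 3.22, 1.98 and 2.17 CPM in model libraries and 4.92, 5.56 and 1.83 CPM in control libraries. The treated libraries lay below all others, with a log2 fold change of -2.53 (SE 0.71) against control livers (adjusted p = 0.0365), and against model livers only DESeq2 called it. The call of Serpina5 against control livers failed in 9 of 19 alternatives, including those without any 1 model library, control replicate 1 or 2, or treated replicate 3 (highest adjusted p = 0.11). Serpini1, neuroserpin, stayed at or under 0.661 CPM and was not called in any comparison.

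**Figure D4:**
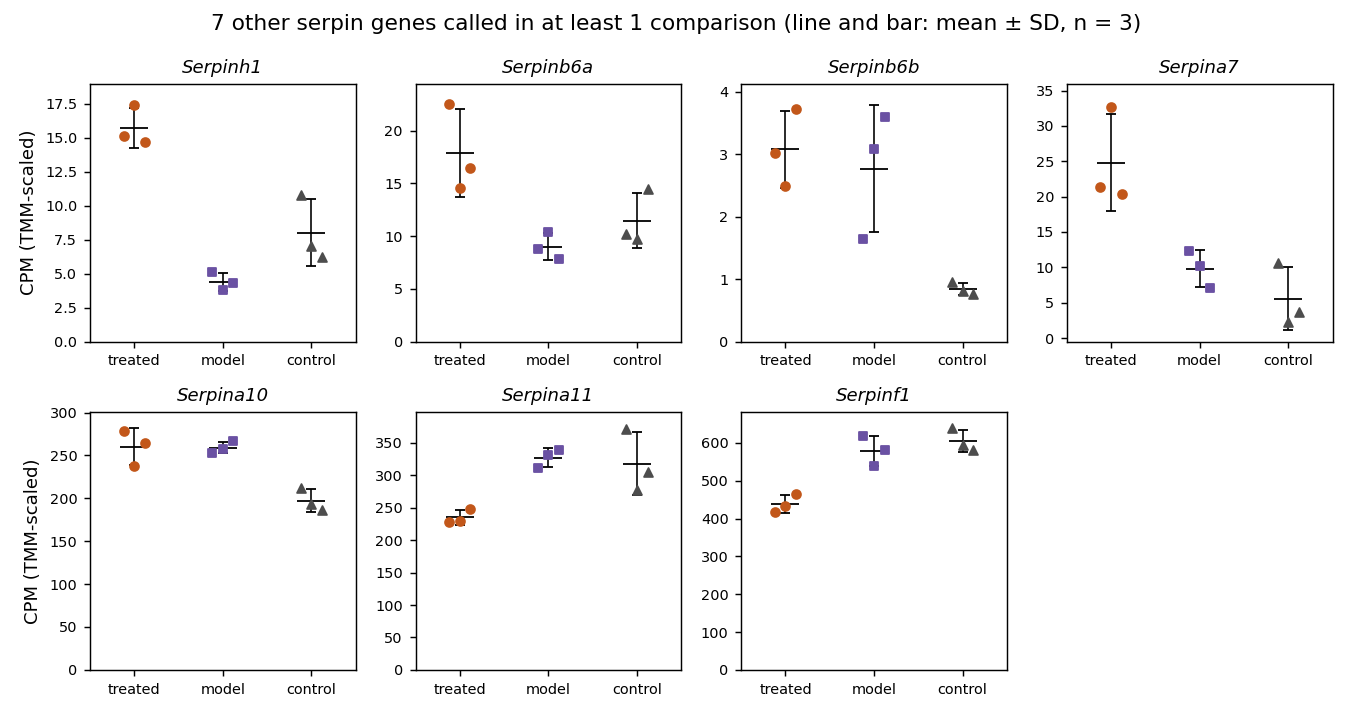
CPM per library on TMM-scaled library sizes for Serpinh1, Serpinb6a, Serpinb6b, Serpina7, Serpina10, Serpina11 and Serpinf1, with treated, model and control libraries from left to right, a line for the mean and bars for the SD (n = 3). In Serpinh1, Serpinb6a and Serpina7 the treated libraries lie above all others, in Serpina11 and Serpinf1 below all others.

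Protease inhibitors of other families, together with Agt, which has the serpin fold without the Serpin name, were counted for comparison. Of 28 tested, 2 were higher and 5 lower in treated than in control livers, beside 9.36% of all genes called higher and 8.47% lower. The median log2 fold change of the list was -0.03. Against model livers 3 were higher and 4 lower, beside 5.21% and 4.44% of all genes, with a median of -0.17. The 4 lower genes of that comparison, Hrg, Kng1, Kng2 and Mug2, kept their calls in 15, 9, 11 and 9 of 19 alternatives, and of the higher ones Slpi in 11. All 5 lost them without model replicate 1 and without treated replicate 1, among other losses (highest adjusted p over all alternatives = 0.176, for Kng2). Against control livers, the calls of Hrg, Kng2 and Mug2 held in 6, 9 and 11 of 19 alternatives. In model versus control livers none was called with edgeR or limma-voom (2 higher and 3 lower at an unadjusted p under 0.05, 1 higher and 2 lower with DESeq2), with a median of 0.07. Mug1, a murinoglobulin of the macroglobulin family, fell to 2861 ± 766 CPM in treated livers, against 6682 ± 1696 CPM in control livers (SD, n = 3 each, adjusted p = 0.00441). Agt, which encodes angiotensinogen, fell 1.66-fold in treated compared with control livers (adjusted p = 0.00332). Cstb, an inhibitor of cathepsins inside cells, rose to 85.8 ± 22.3 CPM in treated livers, against 28.1 ± 3.35 CPM in model livers (adjusted p = 0.00077) and 22.3 ± 3.41 CPM in control livers (adjusted p = 0.000137). Slpi, a secreted inhibitor of elastase and cathepsin G, rose 8.02-fold in treated compared with control livers (adjusted p = 0.00294).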

How the data were processed

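Liver poly(A) RNA of mice was sequenced in 3 treated, 3 model and 3 control libraries, grouped by the labels. Per the file headers, the deposited tables hold estimated counts and FPKM per gene and transcript. The submitters' processing notes name HISAT2 and give no version of it. For quantifier, annotation and strand setting the entry is: not given in the sources used here. In the deposited transcript table, the estimated counts equalled FPKM times length times a constant per library, rounded up, within 1 count for at least 99.8% of transcripts. The authors' FPKM values are scaled per library.

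The whole-number estimated counts were fitted with edgeR 4.0.16 in R 4.3.3 (TMM, robust quasi-likelihood F test, 1 fit over 9 libraries, minimum count 10 and minimum total 15, 18113 genes), with Benjamini-Hochberg adjustment within a comparison. DESeq2 1.42.0, limma 3.58.1 with voom and 17 further alternatives were run, 1 of them added after seeing the data. Paralog groups were also fitted as sums. Promoter sequences came from RefSeq (GRCm38.p6), and coordinates from the deposited tables, equal to those of GENCODE M21 (GRCm38) for 39 of 47 members. Family members and gene lists were chosen with earlier results of these data known. Single genes of a list were named by a rule of at most 4 called genes with the smallest p per comparison, a few others being named after their values were seen. The values of 1 tested member are not reported here, although counts over the family include it. Exact permutation tests compared shares of counts. Depth was close to equal across libraries, and low members rest on few counts.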

Additional observations from a re-analysis of the deposited data

How the results depend on the processing

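For model versus control livers the count of higher members (1) was 2 with DESeq2 and 0 with limma-voom, with the replicate block and with only the 2 groups compared, and 0 to 2 when 1 library was left out. Lower members (0) numbered 3 with DESeq2 and 0 to 1 when 1 library was left out. For treated versus model livers higher members (2) numbered 6 with DESeq2, 4 with limma-voom, 4 with library totals and 4 with only the 2 groups, and 1 to 4 when 1 library was left out. Lower members (6) numbered 12 with DESeq2, 3 with the replicate block and 2 with library totals, and 1 to 7 when 1 library was left out. For treated versus control livers higher members (5) numbered 3 to 5 and lower members (11) 8 to 10 when 1 library was left out, and lower members 7 with library totals. Without model replicate 1, model replicate 3 or treated replicate 1, only Serpina1b and Serpinh1 were called in treated versus model livers. Calls made in all 19 alternatives numbered 0 of 1 for model versus control, 2 of 8 for treated versus model and 9 of 16 for treated versus control livers.

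Of the paralog sums, the log2 fold change of Serpina1 for treated versus model livers lost its call with the replicate block (-0.56, adjusted p = 0.0507) and ran from -0.68 to -0.45 when 1 library was left out. That of Serpina3 was called with DESeq2 (-0.55) and ran from -0.75 to -0.38. Serpinb6 ran from 0.66 to 0.96 for treated versus model and from 0.60 to 0.95 for treated versus control livers, and Serpinb9 was called for treated versus control livers with library totals (0.68) and ran from 0.30 to 0.70. The cause of these changes was not tested. Of single called members, 372 values kept and 102 lost their call, none changed direction, and 45 uncalled values gained one.

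Same-numbered libraries did not deviate together over all tested genes (correlations of -0.0756 to 0.0716). This check cannot exclude a pairing that touches only part of the genes. The labels do not say whether equal numbers mark a shared animal, batch or day. The alternative with library totals was chosen after seeing the data. With 3 libraries a group, small folds and members of few counts are least certain.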

Other observations

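Serpina3c differed widely between libraries of the same group. It had 1776, 0 and 2725 estimated counts in treated libraries, 0, 554 and 3398 in model libraries and 3588, 0 and 0 in control libraries. Each group had at least 1 library at 0 beside another with a high count, and no comparison passed (edgeR adjusted p = 0.989 for treated versus control livers). Serpina3m and Serpina3n, from the same array, did not show this and had at least 34361 and 36021 counts in every library.

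Serpina3k made up 75.6 ± 2.71% of the Serpina3 counts in treated, 78.5 ± 0.740% in model and 81.9 ± 1.27% in control libraries (SD, n = 3 each). All Serpina1 genes together made up 56.2 ± 0.634% of the family's counts in treated, 58.2 ± 0.772% in model and 61.0 ± 1.91% in control libraries.

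Serpina3f, known from immune cells, was at 5.57, 2.25 and 1.87 CPM in treated libraries, 0.324, 1.35 and 0.525 CPM in model libraries and 2.14, 5.27 and 2.54 CPM in control libraries. The model libraries lay below all others. With TMM sizes and all libraries, edgeR called no comparison (adjusted p = 0.0586 for treated versus model and 0.142 for model versus control livers). The fits with library totals and without model replicate 2 called treated versus model livers, and DESeq2 called both comparisons. Serpine2, which inhibits thrombin and urokinase, was at 1.54, 1.56 and 1.68 CPM in treated libraries, 1.33, 1.02 and 0.700 CPM in model libraries and 1.48, 4.13 and 3.34 CPM in control libraries, and was likewise called lower in model than in control livers by DESeq2, and by edgeR only without control replicate 1 (adjusted p = 0.101 with all libraries). Serpina9 was at 0.484, 1.57 and 1.15 CPM in treated libraries, 6.29, 5.69 and 4.58 CPM in model libraries and 10.7, 1.19 and 1.92 CPM in control libraries. Its model libraries lay above all treated libraries, but edgeR's quasi-likelihood test did not pass (log2 fold change -2.37, SE 0.82, adjusted p = 0.119), and DESeq2, the fit of the 2 groups alone and that without control replicate 1 called it.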
